A study of Arabidopsis thaliana with 4 samples.

Results

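Of the 1182 cDNA clones on the array, 22 had a ratio of fed over untreated plants that peaked at 10 h of thrips feeding. They were selected on the authors' deposited natural log values, rescaled to log2 and set relative to the median clone of each array. Of the clones, 607 had a value at all 4 times, and 36 of these (5.93%) had a 10 h value at least 0.5 log2 above the highest of the other times. Of those 36, 13 were left out because every value was at least 1 and 1, KIN2, was left out by name. Clones whose values were all at most -0.8 were also to be left out, and 0 were found. Because the deposited 10 h values chose the members, their peak is a description here and no test of it is given. The gene is named for 3 of the 22 clones, BGLU16, RD2 and AT1G66100, and the other 19 are known only by clone name.

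The plants were wild-type Arabidopsis thaliana, ecotype Columbia (Col-0), grown in soil for 21 days under 16 h of light and 8 h of dark. For feeding, 25 adult female western flower thrips (Frankliniella occidentalis), starved for 3 h, were caged with each plant for 2, 5, 10 or 24 h. The controls were untreated plants grown in parallel. Above-ground tissue was sampled. Each sample held 30 to 70 plants, and replicate experiments were pooled before RNA extraction, so the spread between experiments is not in these data. Each time had 1 two-colour array in these data, with fed plants in Cy5, untreated plants in Cy3 and no dye swap. A gene-specific dye effect and feeding thus cannot be told apart. The labels mention more than 1 array per RNA, and whether the authors' values average further arrays is not stated. No time could be tested alone. The array carried stress-related genes picked by the study, and every ratio is relative to the middle of that selection.

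Thrips pierce single plant cells and suck out their contents, so feeding joins wounding with water loss at the punctured surface. In Arabidopsis such damage is known to raise jasmonate, the main wound hormone, while drought and cold genes respond largely to abscisic acid. Plants also store defence compounds as inactive glucosides, which beta-glucosidases cleave, and make small secreted antimicrobial peptides such as thionins.

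The log2 ratios given from here on were computed afresh from the scanner's spot intensities, with loess normalization within each array and the spots of a clone averaged. Their zero is the loess curve, and the median clone lay at -0.12, -0.06, -0.05 and -0.02 at 2, 5, 10 and 24 h. The value after ± is the SD between the 2 spots of a clone on 1 array, a technical error only. Usable ratios were obtained for 718, 857, 739 and 718 clones at 2, 5, 10 and 24 h. The SD of the ratios over clones was 1.11, 1.29, 1.60 and 1.28, so the 10 h array had the widest spread. By the image names in the file headers, the 2 h and 5 h arrays lay on 1 slide and the 10 h and 24 h arrays on another, and the 2 h and 10 h arrays were the upper ones. Slide, array position and feeding time cannot be told apart for a single time. Of the 1182 clones 415 are named, and of the 8 leaf mesophyll marker genes listed to check the tissue 0 were among them, so that check was not possible. Of 5 root marker genes 3 were named, all beta-glucosidases. BGLU23 and BGLU22 were highest at 24 h, at 2.86 and 1.82. BGLU21 stood at 0.60, 1.08 and 0.57 at 5, 10 and 24 h, and its mean passed as higher in the limma fit described further on (adjusted p = 0.0418).

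BGLU16 (AT3G60130, clone RAFL05-18-I15) encodes a beta-glucosidase of glycoside hydrolase family GH1, a class of enzymes that release sugar from glucosides. Its log2 ratio was 0.43 ± 0.05 at 2 h, 0.45 ± 0.03 at 5 h, 1.69 ± 0.03 at 10 h and -0.26 ± 0.36 at 24 h. The 10 h value, a 3.22-fold higher level in fed plants, stood 1.24 above the next highest time, and neither 10 h spot overlapped any other spot. At 24 h the untreated channel was above background in only 1 of the 2 spots, and the deposited table gave 0.44 there, so the sign at 24 h is not settled. The median fed foreground of BGLU16 was 640.5, 874.5, 1980 and 518 scanner units at 2, 5, 10 and 24 h, not scaled between arrays, and the untreated foreground was 466.5, 368.5, 415.5 and 314.5. Relative to the median of each channel over the clones of an array, the fed signal was -1.08, -1.31, 0.52 and -1.51 log2 and the untreated signal -1.25, -1.69, -1.12 and -1.72. Both were highest at 10 h, the fed signal by far the more. BGLU16 had the fourth largest margin in the deposited table, 1.27. With loess run within each print block (print-tip loess), its margin was 0.05, since its 5, 10 and 24 h values were then 0.74, 0.79 and 0.68.

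AT1G66100 (clone RAFL03-05-H04) encodes a protein of the plant thionin family, small cysteine-rich peptides known for antimicrobial activity. Its log2 ratio was 0.62 ± 0.35 at 2 h, 0.92 ± 0.10 at 5 h, 1.58 ± 0.23 at 10 h and -0.44 ± 0.17 at 24 h. The ratio was thus above 0 at the first 3 times and below 0 at 24 h, where the deposited table, at 0.18, has the opposite sign. The 10 h level was 2.98-fold higher in fed plants, and its lowest 10 h spot, at 1.41, was above its highest spot at any other time, at 0.99. The margin was 0.66, and it was 0.52 in the deposited table, the smallest of the 22. It was 0.04 with print-tip loess and -0.20 when the mean over pixels replaced the median, in which case 10 h was no longer highest. Without the 24 h array its mean over the other times passed the threshold, at 1.04 ± 0.27 (SE, limma adjusted p = 0.0204), which it did not over all 4 arrays (0.67 ± 0.33, limma adjusted p = 0.131).

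RD2 (AT2G21620, clone RAFL05-18-C17) was named as a gene responsive to desiccation. Its log2 ratio was -0.09 ± 0.06 at 2 h, -0.10 ± 0.01 at 5 h, 0.73 ± 0.12 at 10 h and -0.71 at 24 h, with almost no spread between the 2 spots there. It was therefore near 0 at 2 and 5 h, above 0 at 10 h (1.66-fold), and below 0 at 24 h. RD2 was dim: its fed foreground was 585.5, 701, 1205.5 and 451.5 and its untreated foreground 596.5, 387, 488 and 370.5. With print-tip loess its margin of 0.83 turned to -0.34, the values being -0.20, 0.21, -0.12 and 0.07, and with the zero set at the alpha tubulin spots it turned to -0.05. Its peak at 10 h therefore depended on the normalization.

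The unnamed clone with the largest margin in the deposited table was RAFL04-09-K06, at 1.83. Its log2 ratio was -1.79 ± 0.16 at 2 h, -1.12 ± 0.23 at 5 h, 0.48 ± 0.11 at 10 h and -3.03 ± 0.22 at 24 h. It was well below 0 at 3 times and a little above 0 at 10 h only. At 24 h fed plants were not well above background for this clone, which was at least 4.24-fold lower there.

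RAFL04-16-B18 had the widest swing of the 22, with log2 ratios of -0.98 ± 0.07, 2.72 ± 0.01, 4.59 ± 0.41 and -1.74 ± 0.01 at 2, 5, 10 and 24 h. Relative to the loess zero, fed plants had 6.57-fold more signal at 5 h and 24.0-fold more at 10 h, but less than untreated plants at 2 and 24 h. Its fed foreground was 621, 21335, 14677 and 608.5 and its untreated foreground 1085.5, 1731.5, 476 and 1272. The fed signal was thus high at both 5 and 10 h, and the untreated signal was lowest at 10 h.

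RAFL05-04-J06 had log2 ratios of -0.57 ± 0.06, 0.65 ± 0.34, 2.08 ± 0.17 and 0.71 ± 0.29, a 4.22-fold higher level in fed plants at 10 h. RAFL04-12-M23 had -0.83 ± 0.08, -0.38 ± 0.02, 0.60 ± 0.14 and -0.55 ± 0.01, so that only its 10 h value lay above 0. RAFL09-09-L11, a bright clone with untreated foregrounds from 3358 to 5648, had -0.02 ± 0.02, 0.08 ± 0.04, 0.97 ± 0.18 and -0.48 ± 0.17. In all 3 the lowest 10 h spot was above every spot of the other times.

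**Figure D1:**
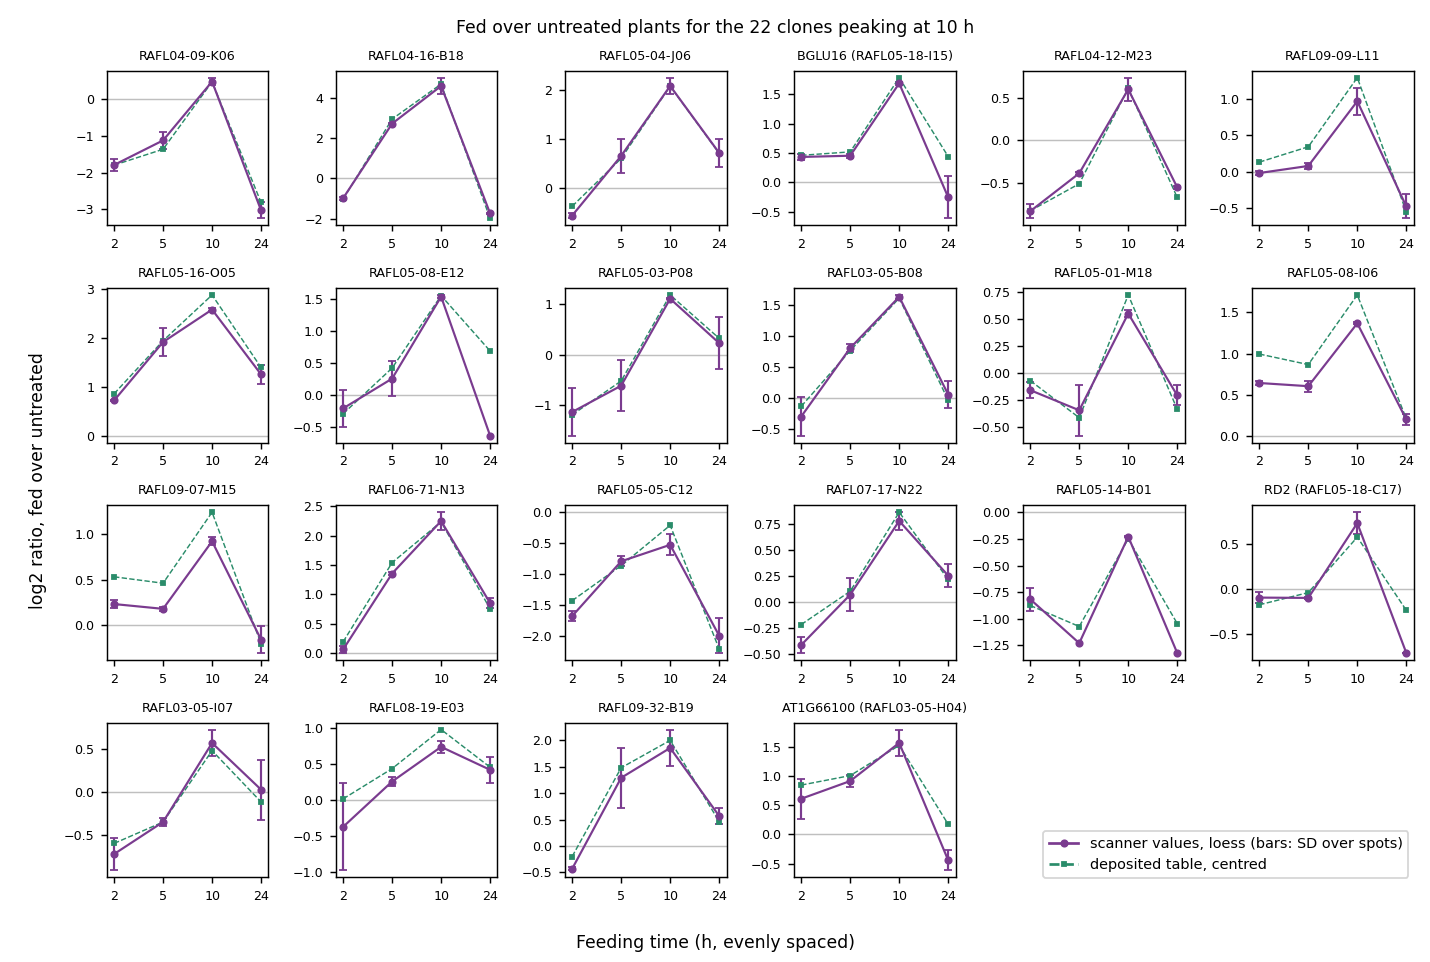
Log2 ratio of fed over untreated plants (vertical axis) at 2, 5, 10 and 24 h (horizontal axis, evenly spaced) for each of the 22 clones on its own vertical scale, from the scanner values (purple, mean over spots with bars of 1 SD) and from the deposited table relative to its median clone (green, dashed). RAFL04-16-B18 reaches 4.59 at 10 h, while RAFL05-05-C12 and RAFL05-14-B01 peak below 0.

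In the values computed from the spots, 10 h was highest for all 22 clones, against 22.1% of the 607 clones. It was at least 0.5 above every other time for 20, against 6.43%. The exceptions were RAFL05-05-C12 and RAFL08-19-E03, with margins of 0.27 and 0.32. Every 10 h spot lay above every spot of the other times for 21 clones, against 14.2% of the 607. The exception was RAFL09-32-B19, whose lowest 10 h spot was 1.61 and whose highest other spot was 1.69. These shares come from the arrays that chose the clones, so nothing is read from the differences. The other unnamed clones named from here on were picked after their values were seen, for the extreme or the small count they represent.

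At the threshold, the clones just inside were AT1G66100, RAFL09-32-B19 and RAFL08-19-E03, each with a deposited margin of 0.52. Just outside were RAFL09-43-M16 at 0.50, DPE1 at 0.49 and RAFL04-17-N14 at 0.47. DPE1 encodes a chloroplast enzyme that rearranges maltotriose from starch breakdown, and its log2 ratio was -0.44, 0.67, 1.04 and -0.77 at 2, 5, 10 and 24 h. No gap in the values separated the clones inside from those outside.

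The median clone of the 22 had a log2 ratio of -0.34 at 2 h, 0.22 at 5 h, 1.04 at 10 h and -0.19 at 24 h. Over all 607 clones these medians were -0.13, -0.09, -0.16 and -0.07. The 10 h values of the 22 ran from -0.52 for RAFL05-05-C12 to 4.59 for RAFL04-16-B18. The ratio rose in order from 2 to 5 to 10 h in 17 of the 22 and in 19.3% of all clones. The selection put 10 h above 5 h in the 22, so only their order of 2 and 5 h was open. Among 2, 5 and 24 h alone, the highest was 5 h for 12 clones, 2 h for 5 and 24 h for 5. Over all clones, whether or not 10 h was higher still, these shares were 32.0%, 37.7% and 30.3%. At 24 h the ratio was below its 2 h value in 12 of the 22 and in 56.5% of all clones.

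A peak at 10 h did not always mean a higher level in fed plants. At 10 h, 20 of the 22 were above 0, as were 45.5% of all 607 clones, and 11 were at least 2-fold higher (log2 ratio of at least 1), where 21.8% of the 739 clones measured were. None was 2-fold lower at 10 h, where 22.5% of clones were. At the other times few passed in the upward direction: 0 at 2 h (19.5% of clones), 4 at 5 h (19% of clones) and 1 at 24 h (19.5% of clones). In the downward direction 3 passed at 2 h, 2 at 5 h and 4 at 24 h, where the shares over all clones were 12.5%, 15.8% and 16%. The selection put the other times at least 0.5 below 10 h and left out clones with every value at least 1. These counts thus came in part with the selection, and nothing is read from their distance to the shares.

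By profile, 3 of the 22 clones were above 0 at all 4 times, as were 29.8% of all clones. They were RAFL05-16-O05, RAFL05-08-I06 and RAFL06-71-N13. The selection favoured a high 10 h value and left out 13 clones with every value at least 1. Nothing is therefore read from the shares beside this profile or the other profiles below. RAFL05-16-O05 had log2 ratios of 0.72, 1.92, 2.58 and 1.25 and was 5.98-fold higher at 10 h. RAFL06-71-N13 had 0.06, 1.36, 2.25 and 0.85, and RAFL05-08-I06 had 0.64, 0.60, 1.37 and 0.20. RAFL06-71-N13 was close to 0 at 2 h, and RAFL05-08-I06 was only 1.15-fold higher at 24 h.

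Below 0 at all 4 times were 2 of the 22, RAFL05-05-C12 and RAFL05-14-B01, and 36.9% of all clones. RAFL05-05-C12 had log2 ratios of -1.67, -0.79, -0.52 and -1.99, and RAFL05-14-B01 had -0.82, -1.23, -0.23 and -1.32. Their peak at 10 h was the least lowered value. At 5 h fed plants were not well above background for RAFL05-14-B01, which was at least 2.34-fold lower there, and only 1 spot was usable at 5 and 24 h.

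Another 4 clones, RD2, RAFL04-09-K06, RAFL04-12-M23 and RAFL05-01-M18, were above 0 at 10 h and below 0 at every other time. Of all 607 clones, 12 had that pattern. RAFL05-01-M18 was the most even of these, at -0.16, -0.35, 0.55 and -0.21. Opposite signs with a log2 ratio of at least 1 in size also occurred in RAFL05-03-P08, at -1.14 ± 0.47, -0.62 ± 0.51, 1.11 ± 0.01 and 0.23 ± 0.52. Its spots were far apart at every time except 10 h. RAFL05-08-E12 was 2.91-fold higher at 10 h, but at 24 h it had 1 usable spot with the untreated channel not well above background. Its 24 h value was -0.64 here and 0.69 in the authors' deposited table.

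The remaining clones had 10 h log2 ratios from 0.56 for RAFL03-05-I07 to 1.86 for RAFL09-32-B19. RAFL03-05-B08 stood at -0.30, 0.81, 1.64 and 0.06, and RAFL09-07-M15 at 0.23, 0.18, 0.92 and -0.17. RAFL07-17-N22 stood at -0.41, 0.07, 0.78 and 0.26, RAFL08-19-E03 at -0.37, 0.26, 0.73 and 0.42, and RAFL03-05-I07 at -0.73, -0.35, 0.56 and 0.02. All of these were lower at 2 h than at 10 h, by more than 0.59, the smallest such difference among the 22.

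To see which dye carried the peak, each channel's log2 signal was set relative to the median of that channel over the clones of its array. Relative to the mean of the other 3 times, the fed channel at 10 h was higher by a median of 1.75 over the 22 clones and the untreated channel by a median of 0.32. Over all 607 clones these medians were -0.08 and -0.04. Selection for a high 10 h ratio favours a high fed or a low untreated signal at 10 h. Nothing is therefore read from the distance to all clones, here or in the counts that follow. The selection did not fix which of the channels differed. The fed channel was highest at 10 h in 20 of the 22, where 19.9% of all clones were. The untreated channel was lowest at 10 h in 2 of the 22, where 15.2% of all clones were. In 3 of those 20, the fed channel at 10 h exceeded its next highest time, 5 h, by little: 0.06 in RAFL06-71-N13, 0.12 in RAFL07-17-N22 and 0.05 in RAFL08-19-E03. Their untreated channel was lower at 10 h than at 5 h, at 0.62 against 1.28, -0.33 against 0.35 and 1.40 against 1.86.

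The fed channel was not highest at 10 h in RAFL04-16-B18 and RAFL09-32-B19. For RAFL04-16-B18 the fed channel stood at 3.54 at 10 h and 3.58 at 5 h, while the untreated channel stood at -0.97 and 0.69 at these times. For RAFL09-32-B19 both channels were dimmest at 10 h: the fed foreground was 20691.5, 15070, 3149 and 41812.5 and the untreated foreground 24662, 3252.5, 576 and 24377.5. At 10 h its untreated channel differed from the mean of the other times by -4.32 and its fed channel by -2.88. The ratio thus peaked while both signals were at their lowest of the 4 times. Relative to the median clone of the 10 h array, its fed channel stood at 1.25 and its untreated channel at -0.64.

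The channel signals were also compared by the position of the array on its slide. Of the 22 clones, 14 had an untreated signal that was higher on both upper arrays, 2 and 10 h, than on both lower arrays, as had 21.1% of all clones. In the fed channel 13 of the 22 and 17.3% of all clones did so. The part of array position in the 10 h peak was not tested. On the 2 upper arrays alone, the ratio of the 22 at 10 h exceeded that at 2 h by 0.59 to 5.57, with a median of 1.27. The fed channel was higher at 10 h than at 2 h in 21 of the 22, where 52.7% of all clones were, with a median difference of 1.40. The median difference in the untreated channel was -0.01. Within the slide of the 10 and 24 h arrays, the ratio at 10 h exceeded that at 24 h by 0.32 to 6.33, with a median of 1.35. The selection required a 10 h value above those at 2 and 24 h. The excess over both times thus came with the selection, and nothing is read from it about array position or slide. The counts in the fed channel came with the selection in part, as a high 10 h ratio favours a high fed signal.

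**Figure D2:**
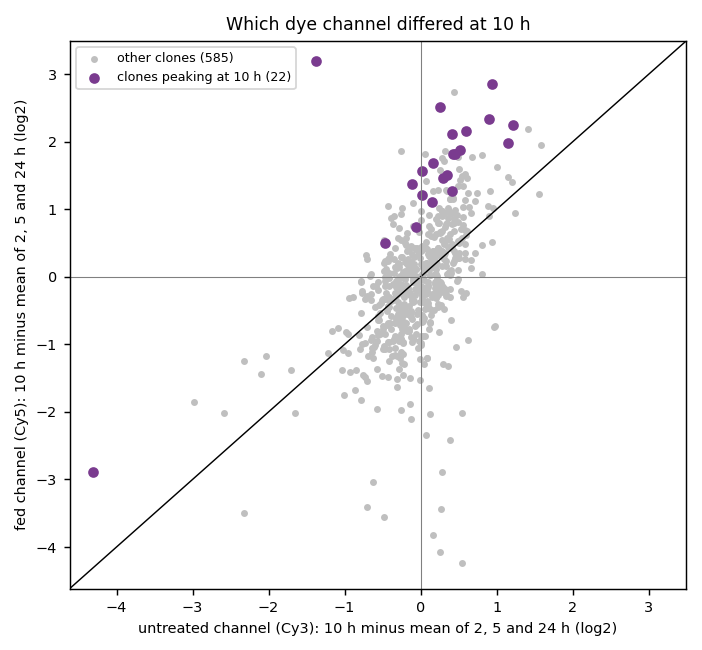
Signal at 10 h minus the mean at 2, 5 and 24 h, in log2 units, in the untreated channel (horizontal axis) and the fed channel (vertical axis), with the 22 clones in purple and all other clones with 4 values in grey. The 22 clones have a median of 1.75 on the fed axis and 0.32 on the untreated axis, where they spread up to 1.22 for AT1G66100, while RAFL09-32-B19 lies far below 0 on both.

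A peak at 10 h differs from a change across the time course, which the limma mean over the 4 arrays measures with the spread between times as its error. In that fit 22.6% of the 806 clones tested were higher and 24.4% lower at an adjusted p under 0.05. A tested clone needed a ratio on at least 2 arrays, so some of these means cover fewer times, while all 22 clones had 4. Of the 22 clones 3 were higher, 2 were lower and 17 did not pass. The selection required a spread between times, which is the error here, and left out clones high at all times. Nothing is therefore read from these counts beside the shares over all clones. RAFL05-16-O05 had a mean of 1.62 ± 0.32 log2 (SE, limma adjusted p = 0.00626), RAFL06-71-N13 1.13 ± 0.35 (limma adjusted p = 0.0338) and RAFL05-08-I06 0.70 ± 0.23 (limma adjusted p = 0.0444). RAFL05-05-C12 had a mean of -1.24 ± 0.29 (limma adjusted p = 0.0122) and RAFL05-14-B01 of -0.90 ± 0.24 (limma adjusted p = 0.0208). The clones that passed were those with the same direction at every time.

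Only RAFL05-16-O05 and RAFL05-05-C12 of these 5 passed with each array left out in turn. RAFL05-08-I06 did not pass without the 2, 5 or 10 h array, RAFL06-71-N13 without the 5, 10 or 24 h array, and RAFL05-14-B01 without the 5 or 24 h array. Without the 10 h array RAFL04-09-K06 passed as lower, at -1.98 ± 0.39 (SE, limma adjusted p = 0.0162). Without the 2 h array RAFL05-04-J06 and RAFL09-32-B19 passed as higher, at 1.14 ± 0.34 (limma adjusted p = 0.0415) and 1.24 ± 0.30 (limma adjusted p = 0.0221). RAFL04-16-B18, the clone with the highest 10 h ratio, had a mean of 1.14 ± 1.00 (limma adjusted p = 0.376), since its values lay on both sides of 0.

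The 10 h peak was neither the most nor the least common peak. With the same margin in the deposited table, 15.7% of the 607 clones peaked at 2 h, 1.98% at 5 h and 6.92% at 24 h. After the same exclusions these were 72, 8 and 37 clones beside the 22 at 10 h. The mirror pattern, a 10 h value at least 0.5 below every other time, was held by 119 clones before exclusions. The 10 h array thus held more clones far below than far above their other values.

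Of 24 genes listed for abscisic acid, drought and cold responses, 8 were among the named clones and spots. None of the 8 could be a member. KIN2 and COR47 were left out by name, and the RD29A spots were not among the clones selected from. The rest lacked a value at some or all times. Any of the listed genes may also be among the unnamed clones. Highest at 10 h were the 3 with a value at every time, KIN2, COR47 and RD29A, as were 22.1% of the 607 clones. KIN2, a small cold- and abscisic acid-induced protein gene left out by name, had log2 ratios of 1.74, 1.77, 3.47 and 0.48. The dehydrin gene COR47 had -0.12, 0.26, 0.31 and -0.74, and so did not have the margin. In the deposited table it was highest at 5 h, at 0.21 against 0.20 at 10 h. The RD29A spots, named for desiccation like RD2, had 0.21, 1.51, 1.77 and 0.12. COR15A, a chloroplast cold-protection gene, had 1.07, 1.34 and 3.05 at 2, 5 and 10 h and no value at 24 h. With values at 5 and 10 h only, COR15B fell from 1.38 to 0.35 and KIN1 rose from -0.04 to 1.04.

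In the limma fit, where 22.6% of all clones were higher, 5 of these 8 genes were tested, and KIN2 (1.86 ± 0.44, adjusted p = 0.0132) and COR15A (1.82 ± 0.42, adjusted p = 0.0162) were higher. KIN1, COR15B and COR47 did not pass, at 0.50 ± 0.38, 0.86 ± 0.37 and -0.07 ± 0.23. RD29B and DREB1A had no usable value. KIN1 and KIN2, and COR15A and COR15B, are close relatives whose signals on cDNA clones may mix. In the main processing RD29A and RD2 were both highest at 10 h and lower at 24 h, though RD2 was near 0 at 5 h. RD2 was selected for its 10 h value, so nothing is read from the shared peak. With print-tip loess RD2 stood at 0.21, -0.12 and 0.07 at 5, 10 and 24 h.

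Of 21 jasmonate genes 4 were among the named clones. Only 2 of these had a value at every time, as the selection required, and 0 were members. OPCL1, an acyl-CoA ligase of jasmonate synthesis, was highest at 10 h but level over time, at 1.86, 1.75, 2.15 and 1.49, and passed as higher (1.81 ± 0.19, limma adjusted p = 0.000649). The defence genes PDF1.2 and THI2.1 were below 0 at 10 h, at -0.58 and -0.54, and highest at 24 h, at 2.82 and 2.55. THI2.1 encodes a thionin, as AT1G66100 does by family, and of these the former was highest and the latter lowest at 24 h, in the deposited table as well for AT1G66100. PDF1.2 and THI2.1 did not pass for their mean, and the difference between THI2.1 and AT1G66100 was not tested.

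Of 14 genes for oxidant and carbonyl detoxification 2 were among the named clones, and both passed as higher, where 22.6% of all clones did. AER, an alkenal reductase, had 0.12, 0.95, 0.95 and 1.41, and ALDH7B4, an aldehyde dehydrogenase, had 0.63, 1.46, 2.01 and 1.96. Neither dropped clearly from 10 to 24 h. Of 9 zinc finger and stress transcription factor genes 2, STZ and WRKY53, were named, and neither passed. STZ had no value at 24 h and WRKY53 none at 2 h, so neither could be a member. None of the 5 dehydration protease, 10 dark and senescence or 10 osmolyte genes was among the named clones.

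Among the 13 clones left out because they were high at all times, RAFL03-08-F09 had the largest deposited margin, 2.02. The named ones were the lectin gene JAL34 and the GDSL lipase-like gene AT1G54010, with margins of 0.73 and 0.63. ALDH7B4 and COR47, also excluded by name, had a margin of -0.01 each and would not have entered. Clones high at all times could thus peak at 10 h by as much as the 22 did.

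The count at 10 h depended on how the arrays were normalized. With print-tip loess 17 of the 22 stayed highest at 10 h and 9 kept the margin of 0.5. Besides RD2, 10 h was then not highest for RAFL03-05-B08, RAFL05-05-C12, RAFL05-14-B01 and RAFL08-19-E03. With the zero at the alpha tubulin spots 16 stayed highest and 4 kept the margin, and at the lambda DNA spots 20 and 8. With arrays scaled to an equal spread all 22 stayed highest and 15 kept the margin. When columns of the deposited table were left centred on lambda DNA, 3 clones met the selection, as the median clone of that table stood at 0.44, 1.73, 0.88 and 1.25 log2 at 2, 5, 10 and 24 h.

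**Figure D3:**
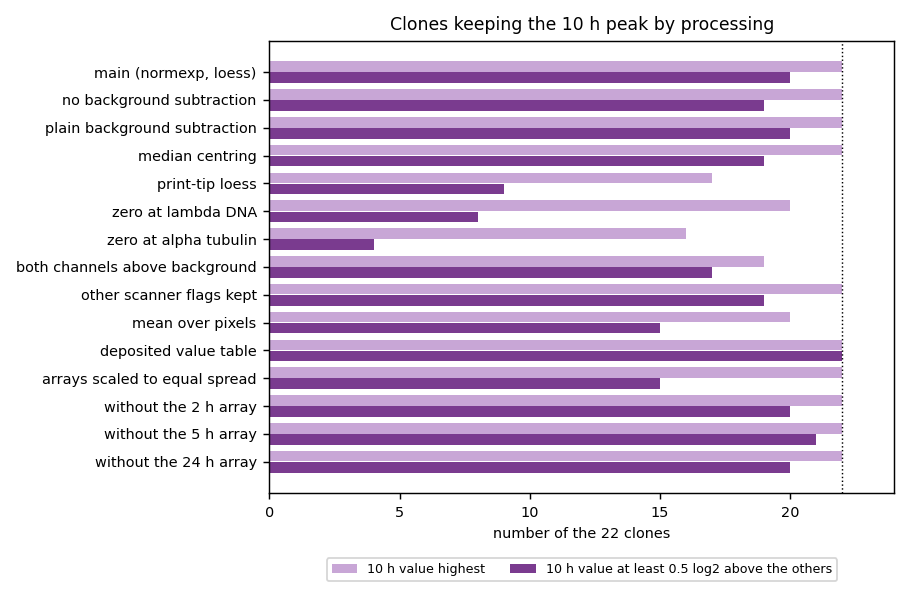
Number of the 22 clones (horizontal axis) whose 10 h value was highest (light bars) or at least 0.5 log2 above every other time (dark bars) under each way of processing (vertical axis). The margin was kept by 20 clones in the main processing, 9 with print-tip loess, 8 with the zero at lambda DNA and 4 with the zero at alpha tubulin.

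The 22 clones were unevenly spread over the print blocks, the areas of the array spotted by 1 pin. Of 12 blocks 9 held a member, and 3 blocks held 14 of the 22 clones with 24.4% of the 607 clones. The block in row 2, column 2, with BGLU16 and RD2, held 5 members among 31 clones. Its median log2 ratio over all its clones was -0.09, -0.32, 0.23 and -0.26 at 2, 5, 10 and 24 h. The block in row 2, column 1, with AT1G66100 and RAFL04-09-K06, held 4 among 52, with medians of 0.24, -0.15, 0.30 and -0.28. The block in row 1, column 1 held 5 among 65, with medians of 0.32, -0.09, 0.41 and 0.05. In all 3 blocks the block median was thus highest at 10 h. Print-tip loess also follows intensity within a block, so its values do not separate out the part of the block. In the block in row 2, column 2 it moved BGLU16 at 10 h from 1.69 to 0.79 but RAFL05-08-I06 from 1.37 to 1.93. The part of the print block in the members' peak was not tested.

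**Figure D4:**
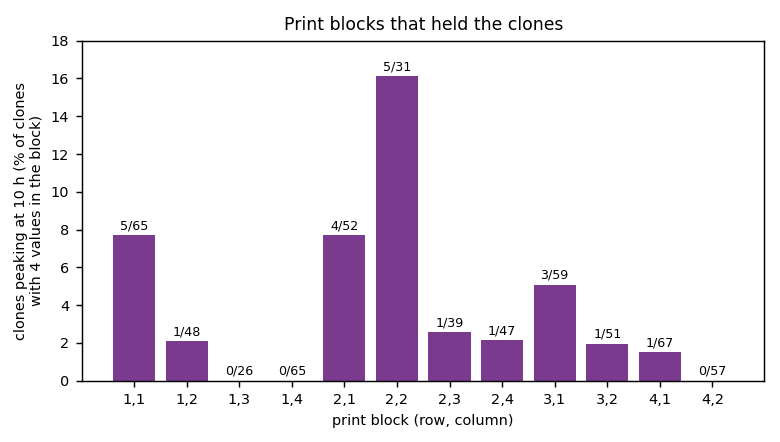
Share of the clones with 4 values that belong to the 22 clones peaking at 10 h, in percent (vertical axis), for each of the 12 print blocks (horizontal axis, row and column). The block in row 2, column 2 stands highest with 5 of its 31 clones, and 3 blocks hold none.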

How the data were processed

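Two-colour spotted cDNA arrays were scanned and quantified with ScanArray Express, and spot values are medians over pixels, per the labels' protocols. The deposited scanner files hold linear intensity values of foreground and local background for both dyes of every spot. The authors' deposited table has natural log values, 1 for each clone on each array, with direction, scale and centring unstated. It was set against log ratios of background-subtracted intensities without loess, with values at its floor left out. On a common scale its slopes were 0.988, 0.984, 0.963 and 0.962 at 2, 5, 10 and 24 h. Its correlations were 0.998, 0.997, 0.993 and 0.994, so it was read as Cy5 over Cy3. The loess ratios were not part of that comparison. Its column medians were 0.305, 1.20, 0.609 and 0.867, its lambda DNA row was at 0, and 8 values at 10 h sat at a floor of 0.01.

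Of 2560 spots per array, 2366 belonged to clones, and usable clone spots numbered 1388, 1653, 1428 and 1393. Flag 3 was read as good, since spots with other flags were dimmer. Normexp (offset 50) and loess within each array, with control spots at weight 0, gave log2 ratios. A limma 3.58.1 (R 4.3.3) intercept over the arrays, eBayes and Benjamini-Hochberg adjustment over 806 clones gave adjusted p-values. They measure the spread between the times at which a clone had a ratio, from 2 to 4, each with 1 array. The number of arrays limits the precision. A channel was above background at 2 background SD in at least 50% of spots. Gene names came from the platform's annotation: of 1196 probes 416 had 1 symbol, 0 several and 780 none, and 415 were matched by identifier. All named members, the 5 unnamed ones with the largest margin, the 3 clones on either side of the threshold and the clones left out by name were to be named. The members and lists were chosen with earlier results of these data known. Promoter motifs and sequences were not analysed here.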

Additional observations from a re-analysis of the deposited data

Results flagged for a closer look

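For 2 of the clones the ratio of fed over untreated plants was at least 2-fold above the loess zero at 1 time and 2-fold below it at another. RAFL04-16-B18 stood at 4.59 log2 at 10 h and at -1.74 at 24 h, with both spots of each array on the same side. RAFL05-03-P08 stood at 1.11 at 10 h and at -1.14 at 2 h, where its 2 spots had an SD of 0.47. Each time had 1 array, and neither difference was tested. The 26 negative control, 6 GFP and 10 bare-number spots gave 0 usable spots on every array.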

How the results depend on the processing

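The number of clones selected was 22, and it was 42 with a margin of 0.3, 5 with a margin of 1 and 3 with columns centred on lambda DNA. The same selection at 2, 5 and 24 h gave 72, 8 and 37. Of the 22 clones 11 were at least 2-fold higher at 10 h, and 7 with print-tip loess, 20 with the zero at lambda DNA and 20 at alpha tubulin. The margin of 0.5 was kept by 20, and by 9, 8 and 4 under these settings. The limma mean passed for 5 clones, for 19 with either zero, for 9 in the deposited table, and for 2 to 6 with 1 array left out, the 2 being without the 5 h array. RD2's margin of 0.83 turned to -0.34 with print-tip loess and to -0.051 at alpha tubulin, and AT1G66100's margin of 0.66 to -0.20 with the mean over pixels. The causes were not tested. The 10 h value was highest for 16 to 22 clones under the settings run, or for 19 of the 19 with a value when both channels had to be above background. Testing dim clones as well left every ratio unchanged by construction, and 5 clones still passed. With spots of other scanner flags kept, which were dimmer, RD2's margin was 0.61 and 7 clones passed. The slide as a block left 5 clones passing. Scaling arrays to equal spread was chosen after seeing the data. No paired analysis was possible because a single array stands for each time. Clones near background at 24 h limit how low their 24 h ratio can be read.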
